A study of Mus musculus with 24 samples.

Results

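Sprouty and Spred proteins are the built-in brakes of the Ras-ERK pathway. The Sprouty genes Spry1, Spry2, Spry3 and Spry4 and the Spred genes Spred1, Spred2 and Spred3 were taken by name from the deposited table of estimated counts, which holds 20351 protein-coding genes. Of these 7 genes 6 were measured and all 6 passed the filter on low counts, while Spry3 was not analysed here. The cells were HL-1, a transformed line from mouse atrial cardiomyocytes that keeps some heart muscle features in culture.

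Growth factor receptors switch on the small GTPase Ras, which starts the kinase chain of Raf, MEK and ERK. ERK signalling raises the transcription of several Sprouty genes, and the proteins then act back on the same pathway below the receptor. Spred proteins share the cysteine-rich Sprouty domain and also carry an EVH1 domain. They bring neurofibromin, an enzyme that turns Ras off, to the membrane. In the heart this pathway takes part in the growth response of muscle cells to load.

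The study asked what MuRF1, a ubiquitin ligase of muscle encoded by Trim63, does in the transcriptional response to stretch. All 24 libraries came from HL-1 cells kept in serum-free medium and given an adenovirus (multiplicity of infection 30), so that no group was free of virus. There were 4 groups of 6. Control cells received Adsh_scrambled, a scrambled hairpin, and knockdown cells received Adsh_MuRF1, a hairpin against MuRF1. From 48 h after transduction each kind of cell was stretched cyclically by 15% at 1 Hz for 60 min or left at 0 min. The labels call the stretch both uniaxial and biaxial. RNA was taken right after the stretch. The labels name 1 cell line and do not say whether replicates were separate cultures, so the p-values speak only for the spread among these libraries, which can be technical.

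Library totals ran from 23564268 to 54755203 estimated counts. The smallest was that of stretched control replicate 5, and the next was 37705431. Replicate 5 of the stretched controls also stood apart on the second principal component, at 54.7 against -14.9 to 13.2 in the other 23. Trim63, the target of the hairpin, stood at 55.7 ± 1.17 CPM (the count relative to the TMM-scaled library total) in unstretched knockdown and 640 ± 68.1 CPM in unstretched control libraries (SD, n = 6 each), or 91.3% lower. The stretched groups differed by 91.2%. In both conditions a two-sided exact permutation test over 924 divisions returned its smallest possible value, p = 0.00216. All 10 cardiomyocyte markers had counts, although Nppa, the atrial natriuretic peptide, reached only 0.238 to 0.858 CPM. The summed level of these markers was 2059 to 2551 CPM in control and 948 to 1156 CPM in knockdown libraries. Tcf21, Lum, Cdh5, Emcn and Adgre1, markers of fibroblasts, endothelium and macrophages, had at most 5 counts in a library. Other members of those lists had more, with up to 413 counts for Pdgfra, 312 for Kdr, 193 for Tek and 166 for Cd68. The fibroblast list of 8 genes, led by the collagens Col1a1 and Col3a1, summed to 216 to 250 CPM in control and 79.9 to 101 CPM in knockdown libraries. Smooth muscle genes such as Acta2 summed to 2507 to 2904 CPM in control and 1738 to 1955 CPM in knockdown libraries. Endothelial genes reached at most 10.2 and 9.10 CPM, and macrophage genes 3.54 and 3.91 CPM. Differences in the muscle and fibroblast lists run with the knockdown in every comparison of it below, and their part in those results was not tested. In bulk RNA, fewer cells of a kind and less RNA per cell cannot be told apart.

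Differences were tested with edgeR's quasi-likelihood test in 1 fit to all 24 libraries and 14411 genes. A gene is said to have risen or fallen where its Benjamini-Hochberg adjusted p over all tested genes was under 0.05. Changes are log2 fold changes with their standard error (SE).

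Spry1 and Spry2 were lower in MuRF1 knockdown cells with and without stretch, and Spred2 was lower in them without stretch. Without stretch 3 of 6 measured genes fell with the knockdown and none rose, beside 57.8% of all tested genes called (28.0% rose, 29.7% fell). With stretch 2 of 6 fell and none rose, beside 52.0% called (25.1% rose, 26.9% fell). The total shares called, 3 and 2 of 6, are not above the background, while the falling shares are, by counts too small to read anything from. What follows concerns the single genes. The median log2 fold change of the 6 genes was -0.13 without and -0.06 with stretch, against 0.0087 and 0.0025 over all genes. Stretch itself changed 0 of 6 genes in control cells, beside 5.95% of all genes (2.55% rose, 3.39% fell), and raised 1 of 6 in knockdown cells, beside 8.93% (5.32% rose, 3.61% fell).

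**Figure D1:**
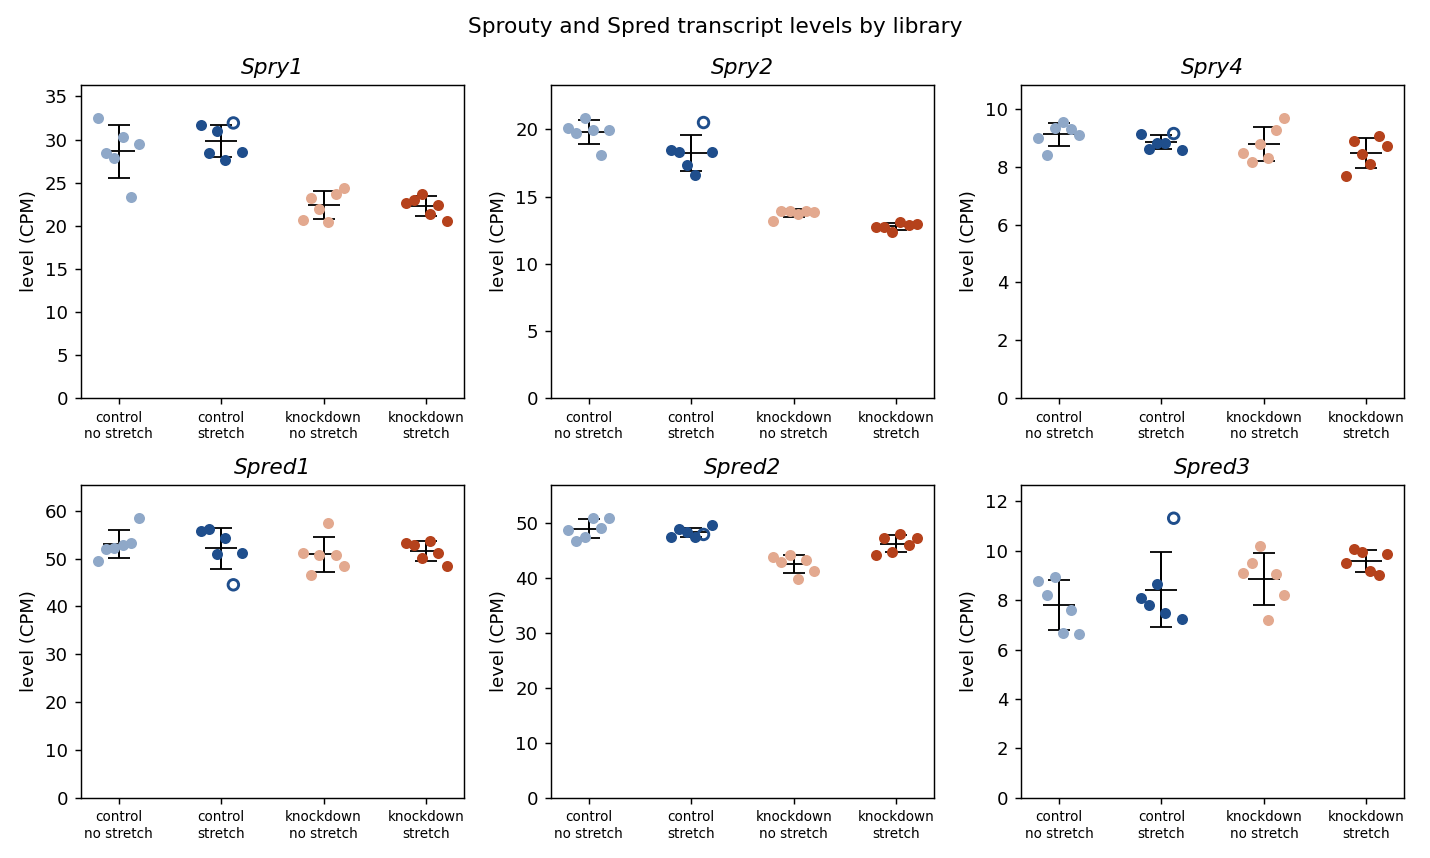
Level in CPM (y axis, from 0) of each measured gene in the 24 libraries, by group on the x axis, with the mean and SD of 6 libraries in black and stretched control replicate 5 as an open circle. Spry2 separates knockdown from control libraries completely, while Spry4 and Spred1 overlap in all groups.

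Spry2 encodes a Sprouty protein that is phosphorylated on a conserved tyrosine after receptor activation and then binds the ubiquitin ligase Cbl. Among the 6 genes it showed the largest knockdown difference in both conditions. In unstretched control cells its lowest, median and highest levels were 18.1, 20.0 and 20.8 CPM. In unstretched knockdown cells they were 13.2, 13.9 and 13.9 CPM. Every knockdown library lay below every control library, as for 21.5% of tested genes. The mean went from 19.8 ± 0.896 to 13.8 ± 0.282 CPM (SD, n = 6 each). In edgeR the change was -0.52 (SE 0.0415, adjusted p = 1.74e-11), or -30.4%.

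In stretched cells Spry2 ranged from 16.6 through a median of 18.3 to 20.5 CPM in control and from 12.4 through 12.8 to 13.1 CPM in knockdown libraries. The groups again did not overlap, as for 17.3% of genes that were lower in all stretched knockdown libraries. The log2 fold change was -0.51 (SE 0.0421, adjusted p = 5.75e-11). Spry2 occupies bases 105891947 to 105896819 of chromosome 14 in GRCm38, minus strand (ENSMUSG00000022114), with 2 merged exons.

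With stretch the mean of Spry2 was lower in both kinds of cell, but neither difference passed the test. In control cells it was 18.3 ± 1.31 CPM with and 19.8 ± 0.896 CPM without stretch (SD, n = 6 each), and edgeR gave -0.12 (SE 0.041, adjusted p = 0.0779). The highest of the stretched libraries, at 20.5 CPM, was replicate 5. Without it the change was -0.15 and passed (edgeR adjusted p = 0.00868), as it also did without unstretched control replicate 5 (-0.15, adjusted p = 0.0385). In knockdown cells the levels were 12.8 ± 0.264 and 13.8 ± 0.282 CPM (SD, n = 6 each). All 6 stretched libraries lay below all 6 unstretched ones, as for 1.93% of tested genes, yet the log2 fold change of -0.10 (SE 0.0425) did not pass (edgeR adjusted p = 0.136). The stretch responses of Spry2 in knockdown and control cells differed by 0.02 on the log2 scale, with a 95% interval from -0.10 to 0.14.

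Spry1, a relative that restrains signalling by several growth factor receptors in development, was the other Sprouty gene that fell with the knockdown. Unstretched control libraries held 23.3, 29.0 and 32.4 CPM at the lowest, median and highest, and unstretched knockdown libraries 20.4, 22.6 and 24.3 CPM. These groups overlapped through control replicate 5, the lowest of its group, and 4 of 6 knockdown libraries lay below every control library. The log2 fold change was -0.36 (SE 0.0609, edgeR adjusted p = 1.4e-05), or -21.9%.

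With stretch the separation of Spry1 was complete, as for 17.3% of tested genes that were lower in all stretched knockdown libraries. Stretched control libraries ran from 27.6 through 29.7 to 31.9 CPM and stretched knockdown libraries from 20.6 through 22.5 to 23.7 CPM. The log2 fold change was -0.42 (SE 0.061, adjusted p = 1.47e-06). Stretch left Spry1 within its spread, at 0.06 (SE 0.0603, adjusted p = 0.635) in control and -0.0066 (SE 0.0615, adjusted p = 0.967) in knockdown cells. The 95% intervals of these changes ran from -0.07 to 0.18 and from -0.13 to 0.12. Spry1 occupies bases 37639947 to 37644598 of chromosome 3, plus strand (ENSMUSG00000037211), with 2 merged exons.

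The stretches before the starts of Spry1 and Spry2 are shown because these genes fell together with the knockdown. Both are from RefSeq on GRCm38.p6, run 5′ to 3′ on the strand of the gene, and cover the 250 bases before the annotated start, chr3:37639697-37639946 for Spry1 and chr14:105896820-105897069 for Spry2. Capitals mark a match to a searched motif.
Spry1: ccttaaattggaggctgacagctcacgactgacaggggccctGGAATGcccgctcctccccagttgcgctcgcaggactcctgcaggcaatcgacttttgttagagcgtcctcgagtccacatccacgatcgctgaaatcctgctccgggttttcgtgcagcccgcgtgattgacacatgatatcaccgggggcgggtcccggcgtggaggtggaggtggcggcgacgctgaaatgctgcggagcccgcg
Spry2: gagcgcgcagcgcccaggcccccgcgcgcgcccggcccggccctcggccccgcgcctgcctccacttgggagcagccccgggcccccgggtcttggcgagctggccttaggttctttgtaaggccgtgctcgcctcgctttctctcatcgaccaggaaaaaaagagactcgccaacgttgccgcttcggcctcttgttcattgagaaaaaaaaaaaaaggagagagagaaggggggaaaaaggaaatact

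Motifs were searched on both strands. They were the AP-1 site TGANTCA, the ETS core CCGGAA, the MCAT element CATTCC and the CArG box. The Spry1 stretch held 1 match, to MCAT on the opposite strand at 208 to 203 bases before the start. The Spry2 stretch held none of the 4 motifs. Among 32851 RefSeq stretches of the same length, 12.6% held an MCAT match, 12.0% an ETS core, 6.75% an AP-1 site and 1.47% a CArG box. G and C made up 62.4% of both stretches, against a median of 52.4%. A match is only a description of the letters.

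Spry4, another Sprouty gene that is raised by ERK signalling in many cells, did not pass in any comparison. Its lowest, median and highest levels were 8.42, 9.21 and 9.55 CPM in unstretched control, 8.59, 8.83 and 9.16 CPM in stretched control, 8.19, 8.63 and 9.68 CPM in unstretched knockdown, and 7.69, 8.58 and 9.08 CPM in stretched knockdown libraries. All 4 groups overlapped. The knockdown changes were -0.05 (SE 0.0498, edgeR adjusted p = 0.364) without and -0.06 (SE 0.0503, adjusted p = 0.328) with stretch, with 95% intervals from -0.16 to 0.05 and from -0.16 to 0.04. The stretch changes were -0.04 (95% interval -0.15 to 0.06) in control and -0.05 (-0.15 to 0.05) in knockdown cells. The intervals for Spry4 and for Spry2 in the knockdown comparisons do not overlap. The gene occupies bases 38586247 to 38601415 of chromosome 18, minus strand (ENSMUSG00000024427).

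**Figure D2:**
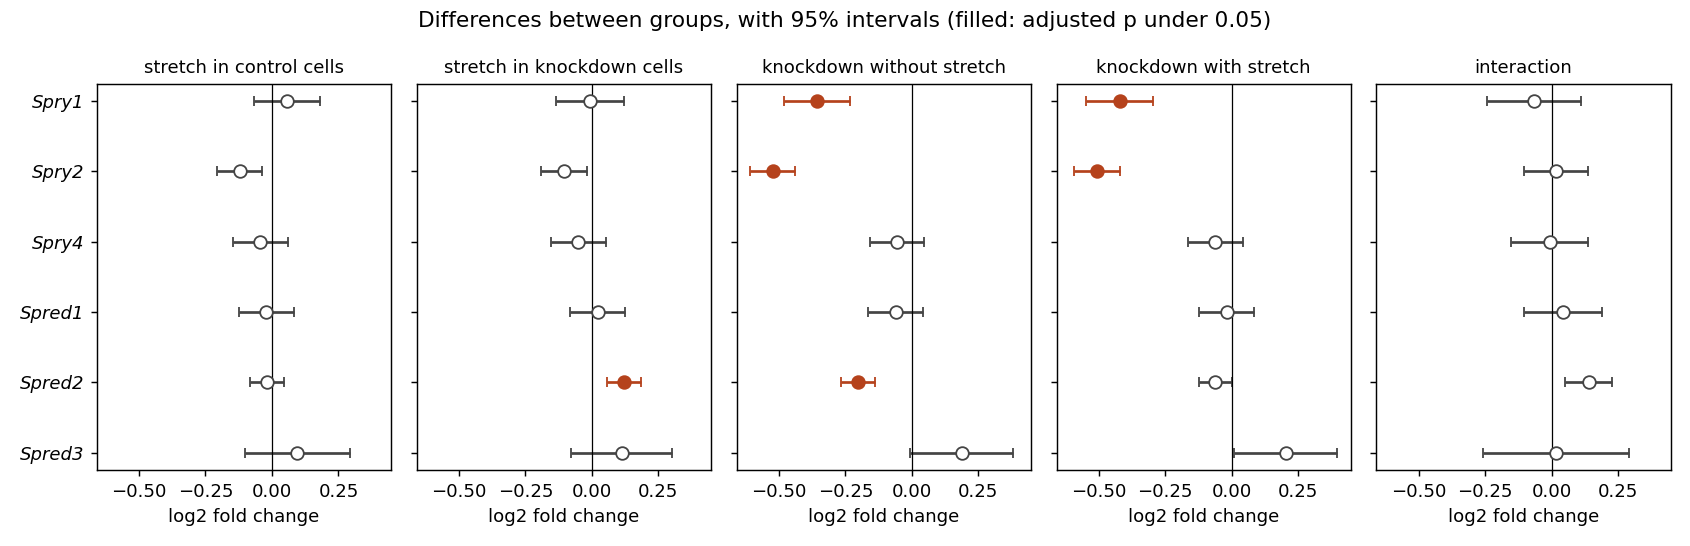
Log2 fold change (x axis) with its 95% interval for each measured gene (y axis) in the 4 comparisons and the interaction, which is the stretch response in knockdown minus that in control cells. Filled points have an adjusted p under 0.05: Spry1 and Spry2 in both knockdown panels, and Spred2 in the unstretched knockdown panel and in stretched knockdown cells.

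Spred2, which encodes a Spred protein found in many tissues, fell with the knockdown in unstretched cells and rose with stretch in knockdown cells. Unstretched control libraries held 46.7, 49.0 and 50.9 CPM and unstretched knockdown libraries 39.95, 43.1 and 44.3 CPM at the lowest, median and highest. All 6 knockdown libraries were below all 6 control libraries, as for 21.5% of tested genes. The mean was 42.6 ± 1.66 against 49.0 ± 1.72 CPM (SD, n = 6 each), and edgeR gave -0.20 (SE 0.0306, adjusted p = 2.34e-06), or -13.1%.

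In stretched cells the knockdown difference of Spred2 did not pass. Stretched control libraries ran from 47.5 through 48.2 to 49.7 CPM and stretched knockdown libraries from 44.3 through 46.7 to 48.1 CPM, so the groups overlapped. The log2 fold change was -0.06 (SE 0.0306, edgeR adjusted p = 0.0934, 95% interval -0.12 to 0.00097).

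Stretch raised Spred2 in knockdown cells and not detectably in control cells. The rise in knockdown cells was from 42.6 ± 1.66 to 46.3 ± 1.54 CPM (SD, n = 6 each). In edgeR it was 0.12 (SE 0.0306, adjusted p = 0.0123), or 8.76%. It was the call counted above for stretched knockdown cells, where 5.32% of all tested genes rose. Of the 6 stretched libraries 5 lay above all unstretched ones. In the same knockdown libraries the summed cardiomyocyte markers were 1103 to 1156 CPM with and 948 to 1034 CPM without stretch, without overlap. The smooth muscle sums (1863 to 1955 against 1738 to 1886 CPM) and fibroblast sums (95.6 to 101 against 79.9 to 97.4 CPM) were also higher on the whole but overlapped. In control cells the cardiomyocyte sums with stretch, 2059 to 2551 CPM, spanned those without, 2147 to 2417 CPM. The part of these markers in the rise of Spred2 was not tested. In control cells the levels were 48.4 ± 0.85 and 49.0 ± 1.72 CPM (SD, n = 6 each), a change of -0.02 (SE 0.0306, adjusted p = 0.775). The unstretched knockdown libraries enter both the knockdown difference and the stretch rise, so these do not stand apart from each other. The test of the difference itself, the interaction, gave 0.14 (SE 0.0432, 95% interval 0.05 to 0.23). It did not pass (edgeR adjusted p = 0.238), so a stretch response of Spred2 that differs between knockdown and control cells was not shown. Spred2 occupies bases 19924375 to 20024026 of chromosome 11, plus strand (ENSMUSG00000045671), with 8 merged exons.

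Spred1, whose loss in people causes Legius syndrome, a disorder of Ras signalling, stayed within its spread throughout. Its lowest, median and highest levels were 49.4, 52.5 and 58.4 CPM in unstretched control, 44.5, 52.7 and 56.2 CPM in stretched control, 46.7, 50.7 and 57.5 CPM in unstretched knockdown, and 48.5, 51.9 and 53.8 CPM in stretched knockdown libraries. The groups overlapped in every pairing. The knockdown changes were -0.06 (95% interval -0.16 to 0.04, edgeR adjusted p = 0.319) without and -0.02 (-0.12 to 0.09, adjusted p = 0.794) with stretch. The stretch changes were -0.02 (-0.12 to 0.08) in control and 0.02 (-0.08 to 0.13) in knockdown cells. The lowest level of all, 44.5 CPM, was in stretched control replicate 5. Without that library the stretch change in control cells turned to 0.02, and it did not pass (adjusted p = 0.836). Spred1 occupies bases 117121374 to 117182279 of chromosome 2, plus strand (ENSMUSG00000027351), with 7 merged exons.

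Spred3, the family member whose domain for binding the receptor Kit is not functional, was the only measured gene with higher mean levels in knockdown cells. Unstretched control libraries held 6.63, 7.91 and 8.96 CPM and unstretched knockdown libraries 7.18, 9.08 and 10.2 CPM at the lowest, median and highest. Stretched control libraries ran from 7.24 through 7.96 to 11.3 CPM and stretched knockdown libraries from 9.01 through 9.68 to 10.1 CPM. The groups overlapped, and the changes of 0.19 (SE 0.0943, edgeR adjusted p = 0.0907) and 0.20 (SE 0.0941, adjusted p = 0.0719) did not pass.

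Whether Spred3 passed with the knockdown depended on which libraries were used, and also on the fit, as given in the last section. Stretched control replicate 5 held 11.3 CPM, above all knockdown libraries, while the other 5 held 7.86 ± 0.557 CPM (SD, n = 5), from 7.24 to 8.66 CPM. Without it the stretched groups no longer overlapped, but the share of all genes without overlap in that set was not counted. The stretched change then became 0.29 (edgeR adjusted p = 0.0031) and the unstretched one 0.19 (adjusted p = 0.0372), so that both passed. That library is not in the unstretched comparison, whose change stayed at 0.19. Its SE went from 0.0943 to 0.0777 in the fit shared by all groups. Leaving out unstretched knockdown replicate 4 also gave passing values, 0.27 (adjusted p = 0.018) without and 0.22 (adjusted p = 0.0471) with stretch. This library, in turn, is not in the stretched comparison. Without unstretched control replicate 3 the unstretched change was 0.23 (adjusted p = 0.0487). Stretch changed Spred3 by 0.10 (SE 0.0957, adjusted p = 0.62) in control and 0.11 (SE 0.0927, adjusted p = 0.528) in knockdown cells, and the former was 0.0088 without stretched control replicate 5. Spred3 occupies bases 29158829 to 29170411 of chromosome 7, minus strand (ENSMUSG00000037239), with 6 merged exons.

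None of the 6 genes passed the test of the interaction, beside 0.0208% of all genes, or 3 of 14411. At an unadjusted p under 0.05 there was 1, Spred2, and DESeq2 called 0. In control cells with stretch, where edgeR called 0 of 6, 1 gene, Spry2, had an unadjusted p under 0.05 and DESeq2 called 0.

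Levels of different genes were compared as CPM per kilobase of merged exons of their coding transcripts in GENCODE vM21. In unstretched control cells the order was Spred2 at 10.6 ± 0.372, Spry1 at 9.85 ± 1.05, Spry2 at 9.48 ± 0.429, Spred1 at 7.82 ± 0.435, Spred3 at 1.93 ± 0.252 and Spry4 at 1.92 ± 0.0832 CPM per kilobase (SD, n = 6 each). The ranges of neighbours overlapped for Spred2 and Spry1, for Spry1 and Spry2, and for Spred3 and Spry4. Spry2, at 8.68 or more, lay above Spred1, at 8.61 or less. In unstretched knockdown cells this pair stood the other way round, with Spry2 at 6.59 ± 0.135 (up to 6.68) and Spred1 at 7.5 ± 0.542 (from 6.88), and Spry1 at 7.69 ± 0.556 overlapped Spred1. The order rests on the annotated lengths, since which isoforms the cells used is not given in the sources used here.

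**Figure D3:**
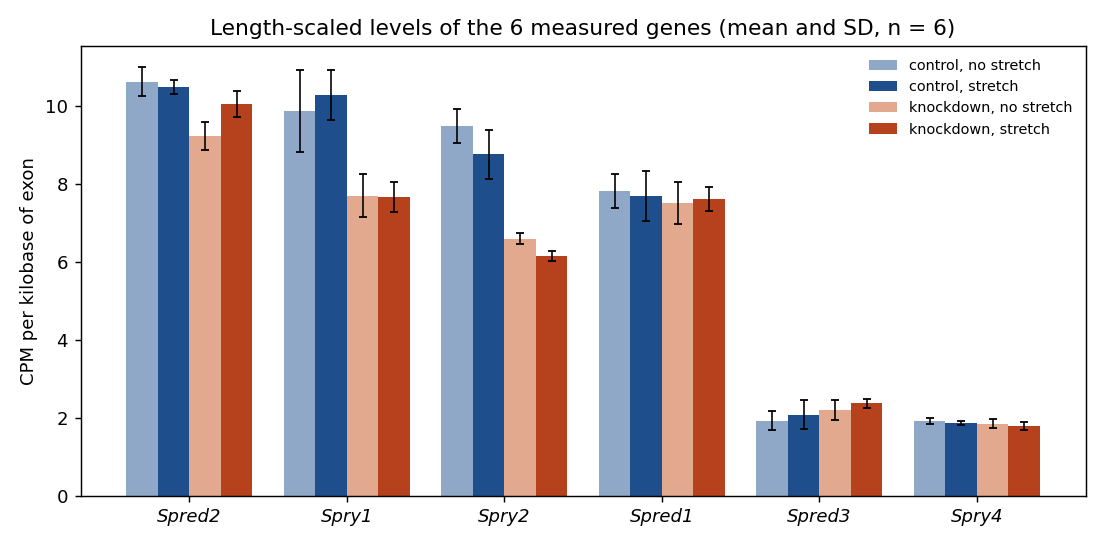
Mean CPM per kilobase of exon (y axis, from 0) with the SD of 6 libraries, for each gene (x axis) and group. Spry2 stands above Spred1 in unstretched control cells and below it in both knockdown groups, and Spred3 and Spry4 stay below 3 throughout.

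The rest of the pathway was described with 7 lists holding 182 different genes, of which 167 were tested. They were chosen with earlier results of these data known, so a share above the background is only a description. Across these lists the knockdown changed many genes both ways, with 36 rising and 68 falling without stretch and 41 rising and 63 falling with it. That is 62.3% of the tested list genes in each case, against the backgrounds of 57.8% and 52.0%. Stretch changed 17 in control cells (7 rose), or 10.2% beside 5.95% of all genes, and 21 in knockdown cells (15 rose), or 12.6% beside 8.93%. These counts were sensitive to single libraries. Without stretched control replicate 5 the number in control cells was 36, or 21.4%, while the share over all genes went to 14.0%. With only the compared groups in the fit it was 9, or 5.56%, beside 2.73% of all genes. In knockdown cells the number was 12 (11 rose) without stretched knockdown replicate 4, or 7.14% beside 5.91% of all genes. It was 13 (12 rose) without unstretched knockdown replicate 2, or 7.78% beside 5.94%. With the scaling of the deposited normalized table it was 14 (13 rose), or 8.38% beside 6.79%. When each library was left out in turn, stretch calls in single lists ran from 1 to 8 in control cells and from 0 to 8 in knockdown cells, so the small counts by list that follow are descriptions. The counts below without stretched control replicate 5 stand beside the same higher share over all genes.

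Genes of proteins known to bind or act on Sprouty and Spred proteins formed 1 list of 23 genes, all tested. Of these 2 rose and 14 fell with the knockdown without stretch, and 3 rose and 13 fell with stretch. The list's median log2 fold change was -0.15 and -0.08, against 0.0087 and 0.0025 over all genes. Cblb, a ubiquitin ligase of the Cbl family, had means of 39.4 in knockdown and 70.5 CPM in control cells without stretch, a change of -0.84 (SE 0.0326, edgeR adjusted p = 4.39e-18), and changed by -0.71 with stretch. Cav3, the muscle caveolin, changed by -1.16 (SE 0.0522, adjusted p = 9.33e-17) and -1.02. Cav2, another caveolin, rose by 0.53 and 0.41, and Cd2ap, an adaptor that binds Cbl, by 0.13 in both. With stretch 3 of the 23 rose and none fell in knockdown cells, led by Cblb (0.17, SE 0.0329) and Siah2, a ubiquitin ligase (0.15, SE 0.0327), and 1 rose in control cells, Siah2 (0.13, SE 0.0324). Without stretched control replicate 5, 3 of the 23 were called in control cells, 1 rising and 2 falling.

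Upstream of the inhibitors, 11 of 43 tested receptors and ligands rose and 20 fell with the knockdown without stretch, and 14 rose and 18 fell with stretch. Fgf16, a fibroblast growth factor of the heart, changed by -1.24 (SE 0.0406, edgeR adjusted p = 1.43e-19) and -1.13, from means of 27.5 and 31.3 CPM in control cells. The receptor gene Fgfr4 changed by -0.89 and -0.79. Hbegf, a ligand of the EGF receptor, rose by 0.96 (SE 0.06, adjusted p = 9.9e-14) without and 0.96 with stretch, and the receptor gene Erbb4 by 0.68 and 0.73. Stretch raised Fgf16 (0.18 in control and 0.29 in knockdown cells) and Fgfr3 (0.13 and 0.20). In control cells Erbb3 and the ligand gene Tgfa fell, by 0.18 and 0.17 on the log2 scale. In all, 2 of 43 rose and 3 fell with stretch in control cells, and 3 rose and none fell in knockdown cells.

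Among adaptors and exchange factors, which link receptors to Ras, 3 of 18 rose and 6 fell with the knockdown without stretch, and 2 rose and 6 fell with it. The docking protein gene Gab1 changed by -0.58 and -0.43, and Ptpn11, which encodes the phosphatase SHP2, rose by 0.17 and 0.19. With stretch 0 rose and 2 fell in control cells, Frs3 (-0.38, SE 0.102) and Gab1 (-0.09, SE 0.0244), and 2 rose and 1 fell in knockdown cells. Without stretched control replicate 5, 5 were called in control cells.

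Of 19 tested Ras GTPases and their inactivators 5 rose and 5 fell with the knockdown in each condition. Rras changed by -0.53 and -0.42, and Rasal2, a Ras inactivator, rose by 0.42 and 0.45. Nf1, which encodes the neurofibromin that Spred proteins recruit, rose by 0.11 (edgeR adjusted p = 0.0113) and 0.16 (adjusted p = 0.000585), and it was singled out here for that link after its values were seen. Stretch changed 1 of the 19 in each kind of cell, Rasa3, by -0.24 and -0.20, and 6 in control cells without stretched control replicate 5.

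Of the 22 genes of the Raf-MEK-ERK core 2 rose and 8 fell with the knockdown without stretch, and 3 rose and 8 fell with it. Mapk3, which encodes ERK1, changed by -0.48 (SE 0.0304, edgeR adjusted p = 1.26e-13) and -0.38, and the scaffold gene Cnksr2 rose by 0.57 and 0.59. Stretch changed 1 of 22 in control cells, Rps6ka1 (-0.19, SE 0.0357), and 0 in knockdown cells by edgeR, where 2 had an unadjusted p under 0.05 and DESeq2 called 0. Without stretched control replicate 5 these counts were 2 and 1.

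Other inhibitors and modulators of receptor signalling changed both ways. Without stretch 8 of 20 tested genes rose and 10 fell with the knockdown, and with stretch 7 rose and 10 fell. The largest falls here by adjusted p were those of Flrt3 (-1.36 and -1.22) and Flrt2 (-1.08 and -0.95), membrane proteins that bind FGF receptors and are known to promote FGF signalling. Errfi1, an inhibitor of the EGF receptor, rose by 0.51 and 0.55. Stretch raised Dusp5, a nuclear ERK phosphatase, by 0.31 (SE 0.087) in control and 0.63 (SE 0.0831) in knockdown cells, with 1 of 20 rising and 2 falling in control and 4 rising and 4 falling in knockdown cells. Of the falls in knockdown cells 1 was called without stretched knockdown replicate 2 or 4 or without unstretched knockdown replicate 2, and 0 with the scaling of the deposited normalized table, where 4 rises were called. Without stretched control replicate 5, 7 were called in control cells.

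A list of transcripts linked to ERK activity gave no single direction. It also held the genes Cic, Elk1, Elk3 and Elk4. Cic without stretch and Elk1 in both conditions were among the falls counted here with the knockdown. With the knockdown 6 of 24 rose and 6 fell without stretch, and 8 rose and 4 fell with it. Dusp6, an ERK phosphatase also held in the previous list, changed by -0.67 (SE 0.0592, edgeR adjusted p = 1.7e-10) and -0.58, and Ccnd1, the gene of cyclin D1, by -0.72 and -0.88. Fosl1, an AP-1 subunit, rose by 0.77 and 0.61. Stretch raised Mcl1 (0.17 and 0.20) and Myc (0.32 and 0.45) in both kinds of cell, while Etv5 fell in control cells (-0.18, SE 0.0419). In all, 3 of 24 rose and 1 fell with stretch in control cells, and 3 rose and none fell in knockdown cells. Without stretched control replicate 5 these were 3 and 3, and 4 and 1. In the interaction 0 of the 167 tested list genes passed in edgeR, 21 had an unadjusted p under 0.05, and DESeq2 called 1.

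**Figure D4:**
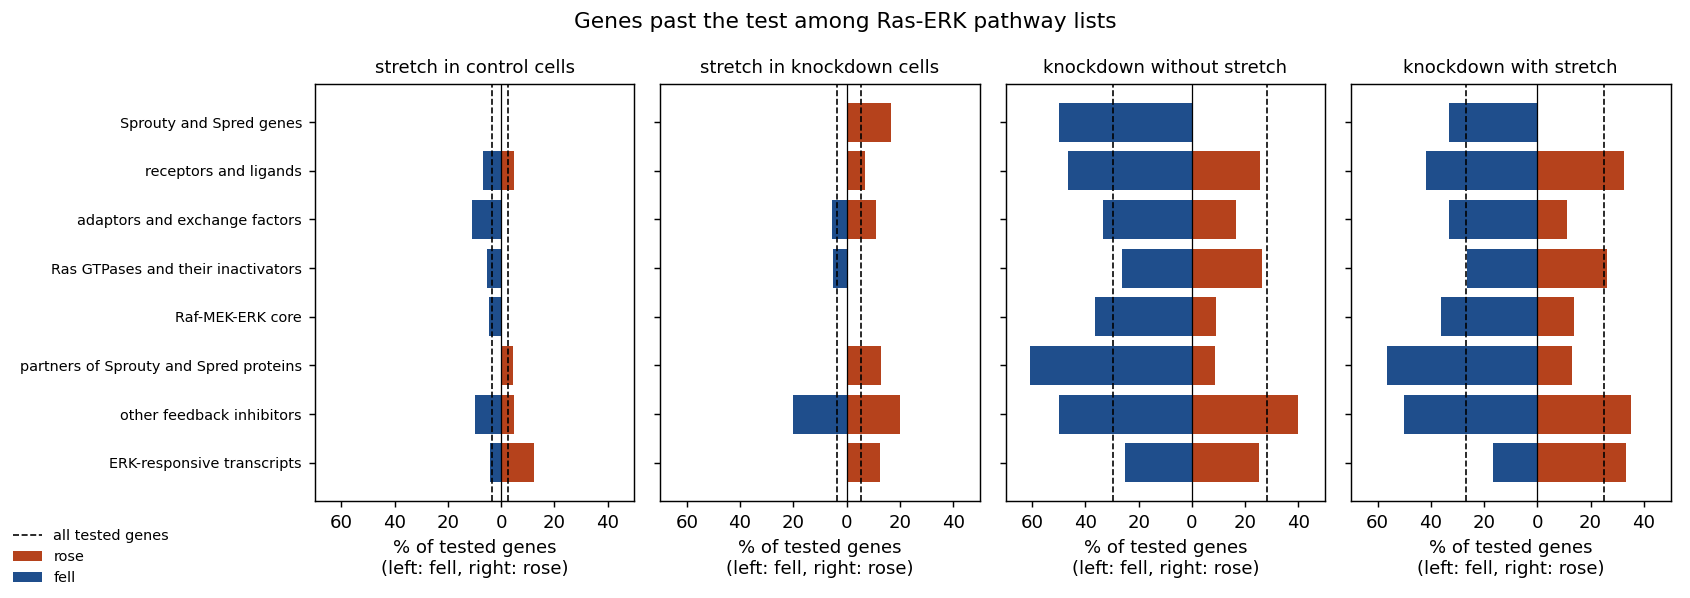
Share of tested genes (x axis, in %) that rose (right) or fell (left) in each comparison, for the 6 Sprouty and Spred genes and the 7 pathway lists (y axis), with dashed lines at the shares over all 14411 tested genes. With the knockdown, the bar for falling genes passes the dashed line in both conditions for the Sprouty and Spred genes, their partners, receptors and ligands, adaptors, the Raf-MEK-ERK core and the other feedback inhibitors. The bar for rising genes passes it in both conditions for the other feedback inhibitors. With stretch it also does so for receptors and ligands, Ras GTPases and ERK-responsive transcripts. For adaptors without stretch and for rising Ras GTPases the margin is small. The genes and lists were chosen with earlier results of these data known.

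Each member was compared with 10981 other genes whose average log2 CPM was 1 or more, leaving out clone-type names such as those ending in Rik. Among these, genes with the most similar pattern were found by Pearson's r of log2 CPM over all 24 libraries. The libraries share their groups, so these values describe likeness and carry no test. Closest to Spry2 were Tmbim1 (r = 0.97), Afg3l1 (0.97) and Nfe2l1 (0.97). After group means were removed, r for these was 0.51, 0.66 and 0.49. Closest to Spry1 were Mybpc3, Hk2 and Hs6st1 (0.92 each, and 0.64, 0.65 and 0.70 within groups). Spred2 was most like Foxn3 (0.91), Klf12 (0.91) and Herc1 (0.89), with 0.77, 0.66 and 0.52 within groups. Spred1 was most like Tmem168 (0.90), Suz12 (0.90) and Gnai3 (0.90), and these kept 0.93, 0.90 and 0.90 within groups. Spred3 was most like Dnah2 (0.92), Pprc1 (0.91) and Shank1 (0.90), with 0.91, 0.87 and 0.86 within groups. Spry4 had the weakest likenesses, to Amdhd2 (0.71), Apobec3 (0.71) and Plin3 (0.69), with 0.63, 0.74 and 0.59 within groups. Removing group means thus lowered r for the genes closest to Spry1, Spry2 and Spred2, all picked with group differences included. It left r at 0.86 or more for those closest to Spred1 and Spred3. Stretched control replicate 5 held the lowest Spred1 and the highest Spred3 level of all libraries, and its part in these values was not tested.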

How the data were processed

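Poly(A) RNA of 24 HL-1 libraries was sequenced from a stranded kit, per the labels' protocols. The authors deposited estimated counts per gene, 36.6% of them whole within 1e-09, and a normalized signal for the same genes. Tools listed in the submitters' processing notes are R 3.4.4, kallisto 0.44.0 and DESeq2 1.18.1, with the build GRCm38.p6. Annotation release, summing to genes and use of strand: not given in the sources used here. In the deposited signal the ratio to the count varied between genes, so it served only as an alternative scaling.

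After rounding, counts went into edgeR 4.0.16 (R 4.3.3): TMM factors, filterByExpr (minimum count 10, minimum total 15), 1 coefficient per group, robust quasi-likelihood, 20 residual degrees of freedom, Benjamini-Hochberg over 14411 genes. The SE is the fold change divided by the root of F. Log2 CPM used a prior count of 2. The test was checked on simulated data. Positions are from GENCODE vM21.

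The members and lists were chosen with earlier results of these data known. Named were all members, Trim63, up to 2 rising and 2 falling list genes per comparison with the smallest adjusted p, and the 3 genes most like each member. Alternatives were DESeq2 1.42.0 (its factors or its test), no filter, the authors' scaling, only the compared groups, blocks by replicate number or code letter, and leaving out each library. Every group holds libraries of both code letters, a for its lower and b for its higher replicate numbers, and no batch is named for them.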

Additional observations from a re-analysis of the deposited data

Results flagged for a closer look

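In 24 sets of 6 libraries (6 genes in 4 groups), 2 libraries lay far from the rest of their group by Dixon's ratio, with a gap over the range above 0.625. Chance flags about 1 in 20 such sets. Stretched control replicate 5 held 11.3 CPM of Spred3 against 7.24 to 8.66 CPM in the other libraries of its group, a ratio of 0.651. Unstretched knockdown replicate 1 held 13.2 CPM of Spry2 against 13.7 to 13.9 CPM in its group, a ratio of 0.709, and it remained below all control libraries.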

How the results depend on the processing

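The falls of Spry1 and Spry2 with the knockdown, of Spred2 without stretch and its rise with stretch in knockdown cells passed under all 7 other settings and without any of the 24 libraries. The number of the 6 genes called with stretch in control cells was 0 to 1 when 1 library was left out, with Spry2 called without stretched or unstretched control replicate 5. Replicate numbers paired the libraries weakly at most. Deviations from group means correlated at 0.0266 on average within a number and at -0.0054 between different numbers. Of 36 pairs within a number 3 exceeded 0.1, and 8 of 24 libraries correlated best with their own number. With the replicate block the calls of knockdown without and with stretch were 4 and 3 of 6 genes. The gene added was Spred3 (0.19, edgeR adjusted p = 0.0497, and 0.21, adjusted p = 0.0321). In that fit 8378 and 7567 of all tested genes were called, against 8325 (57.8%) and 7494 (52.0%) in the report. Counts out of 6 are too small to set these calls apart from that background. With this block 9 genes of the whole table had an interaction. Calls over all genes for stretch in control cells, 857 in the report, were 566 with the authors' scaling, 377 with only the groups compared, 568 to 2023 when 1 library was left out (lowest without stretched control replicate 1, highest without replicate 5), and 42.9% of them rose, against 60.7% with no filter and 58.9% with only the groups compared. For stretch in knockdown cells they were 1287, and 856 to 1930 without 1 library (lowest without stretched knockdown replicate 4, highest without stretched control replicate 5). For the interaction they were 3, against 90 with DESeq2, 1 with the authors' scaling, 45 with the code letter block and 0 to 109 without 1 library (lowest without stretched control replicate 2 or unstretched control replicate 6, highest without stretched control replicate 5). The cause was not tested. Signs turned only for changes that did not pass: with no filter for Spred1 with knockdown and stretch (0.0013) and for the interactions of Spry2 (-0.00099) and Spred3 (-0.0011); and without 1 library for Spred1 with stretch in control (-0.043 to 0.018) and knockdown cells (-0.0022 to 0.061) and with knockdown and stretch (-0.057 to 0.0037), for Spry1 with stretch in knockdown cells (-0.030 to 0.018), and for the interactions of Spry2 (-0.0097 to 0.049), Spry4 (-0.037 to 0.022) and Spred3 (-0.052 to 0.10). With counts of 224 to 480 per library for Spry4 and 272 to 544 for Spred3, small changes of these genes could be missed.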
